A study of Homo sapiens with 12 samples.

Results

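The genes described here are 33 human genes of the lysosome and of autophagy, out of 19775 genes measured. They were listed by name and role with earlier results of these data known, and all 33 were measured. They comprise 6 lysosomal proteases, 8 glycosidases, sulfatases and activators, 5 lysosomal membrane proteins, the 3 MiT-TFE transcription factors TFEB, TFE3 and MITF, 8 autophagy genes and 3 subunits of the vacuolar proton pump (V-ATPase). RNA was measured in 4 lines, all made from the HER2-amplified human breast cancer line SKBR-3. SKR6CA is SKR6 transduced with a retrovirus for constitutively active p65 (RELA), a subunit of NF-kB, and selected with puromycin. SKR6LR is SKR6 exposed for months to lapatinib, a drug that blocks the kinase activity of EGFR and HER2, at doses raised from 0.2 to 5 µM. SKR6-Vector is SKR6 with the empty pQCXIP retroviral vector and the same puromycin selection. SKR6 is a population of SKBR-3 sorted by flow cytometry for high HER2, so every line shares that sort. There were 3 biological replicates of every line, each read on 1 array, and all were grown for 48 hours in 10% serum before RNA was taken. The growth protocol adds that cells spelled SKLR were kept in 0.2 µM lapatinib; if these are SKR6LR, the drug and the derived state of the line cannot be told apart.

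Lysosomes are acidic organelles in which hydrolases break down proteins, glycans and lipids that arrive by endocytosis or by autophagy. The V-ATPase pumps the protons that the hydrolases need, and membrane glycoproteins such as LAMP1 and LAMP2 line the organelle. TFEB, TFE3 and MITF bind E-boxes with the core CACGTG and are known to drive many lysosomal and autophagy genes; when nutrients are plentiful, the kinase mTORC1 holds TFEB and TFE3 in the cytoplasm, so the RNA level of a factor does not give its activity.

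All values are log2 values from robust multi-array averaging (RMA), in which 1 unit is a doubling, and a difference is given on the same log2 scale. Array medians lay between 5.74 and 5.77. The SKR6LR arrays stood apart. Their correlation with arrays of other lines reached at most 0.933, and their replicate SD over all genes was 0.209, against 0.107 in SKR6CA, 0.0965 in SKR6-Vector and 0.0958 in SKR6. RNA quality was read from the actin control probe sets: their signal at the 3′ end exceeded that at the 5′ end by 2.32 on the array of SKR6LR replicate 3 and by 1.03 to 1.73 elsewhere, and the part of this in the results was not tested. Of 8 markers of HER2-positive luminal breast epithelium, 7 had means above 8 in every line, and CDH1, the E-cadherin gene, lay at 4.24 to 4.28. Their summed log2 level was 93.47 to 95.52 on the SKR6LR arrays against 97.08 to 97.29 on the SKR6 arrays; ERBB2, which encodes HER2, fell by 1.38 in SKR6LR, its neighbour in the HER2 amplicon GRB7 by 1.28 and the keratin KRT19 by 0.94, while the keratins KRT18 and KRT8 were higher by 0.64 and 0.45. It was 98.29 to 98.61 on the SKR6CA arrays against 97.72 to 97.87 on the SKR6-Vector arrays. Macrophages, osteoclasts and melanocytes also use many of the genes described here. Of 10 macrophage and osteoclast markers, 1 had a mean above 8, CSF1R in SKR6LR at 8.12, and their summed log2 level was 52.57 to 53.28 on the SKR6LR arrays against 48.76 to 49.53 on the SKR6 arrays, and 49.42 to 50.02 on the SKR6CA arrays against 49.00 to 49.74 on the SKR6-Vector arrays; the pan-leukocyte marker PTPRC lay at 3.98 to 4.22 in the 4 lines. None of 7 measured melanocyte markers had a mean above 8, the highest being PMEL at 7.08 in SKR6LR. Their summed level was 36.67 to 37.28 on the SKR6-Vector arrays against 35.59 to 36.21 on the SKR6 arrays, without overlap, and TYRP1 and SLC45A2 were called higher there, by 0.39 and 0.24, at means of 3.88 and 5.53 in SKR6-Vector. It was 36.54 to 36.66 on the SKR6LR arrays and 36.19 to 37.09 on the SKR6CA arrays. Of 8 fibroblast markers, COL3A1 reached 9.49 in SKR6LR, and the others had means under 8 in all lines; the summed level was 43.52 to 44.98 on the SKR6LR arrays against 38.67 to 39.44 on the SKR6 arrays. The part of these markers in the results was not tested. An array averages over a culture, so fewer cells that express a gene and less RNA per cell cannot be told apart.

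The E-box core CACGTG, which MiT-TFE factors and other E-box factors bind, occurred in the promoters of 8 of the 24 genes that the RefSeq promoter table (GRCh38.p14) held, over 250 bases before to 50 bases after the start. That is 33.3% of them, against 7.43% of all 27305 promoters of the same length. The longer TCACGTG, read on either strand, occurred in 7 of the 24 (29.2%, against 3.82% of all), and a palindrome that extends the core by GT before and AC after it in 2 (8.3%, against 0.38%). The motifs overlap, since each longer match holds the core. These letters were chosen with the array values known, and a match describes the sequence only. The stretches below are shown because they hold the matches in 5 genes that were lower in SKR6LR than in SKR6 and, for GAA, in a gene that was not called there. They are printed 5′ to 3′ on the strand of the gene, with the matched letters in capitals. They lie at chr20:45891276-45891332 (CTSA, plus strand), chr11:1763952-1763991 (CTSD, minus strand), chr13:113297030-113297119 (LAMP1, plus strand), chr19:7522566-7522623 (MCOLN1, plus strand), chr16:67481194-67481233 (ATP6V0D1, minus strand) and chr17:80101488-80101572 (GAA, plus strand), all within 209 bases before the start. LAMP1 held 4 of its 6 core matches in this stretch and the others nearer the start, while GAA held 2 copies of the palindrome.
CTSA: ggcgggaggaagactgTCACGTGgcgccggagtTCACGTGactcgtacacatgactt
CTSD: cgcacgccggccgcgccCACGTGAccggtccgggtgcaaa
LAMP1: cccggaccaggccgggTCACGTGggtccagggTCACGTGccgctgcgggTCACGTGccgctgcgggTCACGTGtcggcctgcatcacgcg
MCOLN1: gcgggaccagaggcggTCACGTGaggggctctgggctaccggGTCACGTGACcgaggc
ATP6V0D1: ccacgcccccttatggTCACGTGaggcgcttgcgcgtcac
GAA: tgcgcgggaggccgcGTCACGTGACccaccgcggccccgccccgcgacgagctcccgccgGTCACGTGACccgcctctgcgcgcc

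Of the genes called in SKR6CA against SKR6-Vector, more were lower than higher. In this comparison, which asks what active p65 adds to transduction and selection, 2 of the 33 genes were higher, 14 were lower and 17 were not called (limma, adjusted p under 0.05 over all genes). The call rate was 48.5%, beside 26.6% of all genes, of which 11.7% were higher and 14.9% lower. The genes described here are well expressed, 31 of them with a mean above the all-gene median of 6.84; among all genes above that level, 42.9% were called, 19.6% higher and 23.3% lower, so the number called is near the background of well-expressed genes. The median difference of the 33 genes was -0.17, beside 0.00 for all genes. Arrays of SKR6CA and SKR6-Vector did not overlap for 5 genes that lay higher and 18 that lay lower, beside 45.5% of all genes without overlap in either direction.

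In the lapatinib-selected line the genes moved in both directions. Against SKR6, which asks how the selected line differs from its parent, 10 of the 33 were higher in SKR6LR, 14 lower and 9 not called, a rate of 72.7% beside 52.3% of all genes, of which 21.4% were higher and 31.0% lower. Among genes above the median level the rate was 75.8%, with 28.8% higher and 47.0% lower, so the number called is near the background. Their median difference was -0.16, beside -0.06 for all genes, and it ran from -0.22 to 0.00 when single arrays were left out, reaching 0.00 without SKR6LR replicate 1. All 3 V-ATPase subunits and 4 of 6 proteases were lower, while 4 of 8 autophagy genes were higher and none of them was called lower. Arrays did not overlap for 9 genes that lay higher and 14 that lay lower, beside 57.9% of all genes.

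Of the genes called in SKR6-Vector against SKR6, more were higher than lower. This comparison sets the transduced and selected vector line against its parent; transduction, selection and other changes in deriving the line cannot be told apart in it. It gave 11 genes higher, 2 lower and 20 not called, a rate of 39.4% beside 25.7% of all genes (12.2% higher, 13.4% lower) and 42.2% of genes above the median level (19.2% higher, 23.0% lower), so that here too the number called is near the background. The median difference was 0.16, beside -0.02 for all genes. Arrays did not overlap for 22 genes that lay higher and 5 that lay lower, beside 48.2% of all genes. When SKR6CA was set against SKR6 instead of SKR6-Vector, 5 genes were higher and 9 lower, 42.4% beside 24.3% of all genes (9.97% higher, 14.4% lower) and 40.1% of genes above the median level (16.4% higher, 23.7% lower), and the median difference was 0.05, beside -0.01. These comparisons share the SKR6 or the SKR6-Vector arrays, so their values are given side by side only. The test pools the spread over all lines, the wide SKR6LR spread included. In fits of only the compared arrays 18 of the 33 genes were higher in SKR6-Vector than in SKR6. Of all 19775 genes, 3452 were higher in that fit, against 2418 in the pooled fit. In SKR6CA against SKR6 such a fit gave 11 higher, beside 2644 of all genes, against 1972 in the pooled fit. In SKR6CA against SKR6-Vector it gave 4 higher and 16 lower, beside 2982 and 3647 of all genes.

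**Figure D1:**
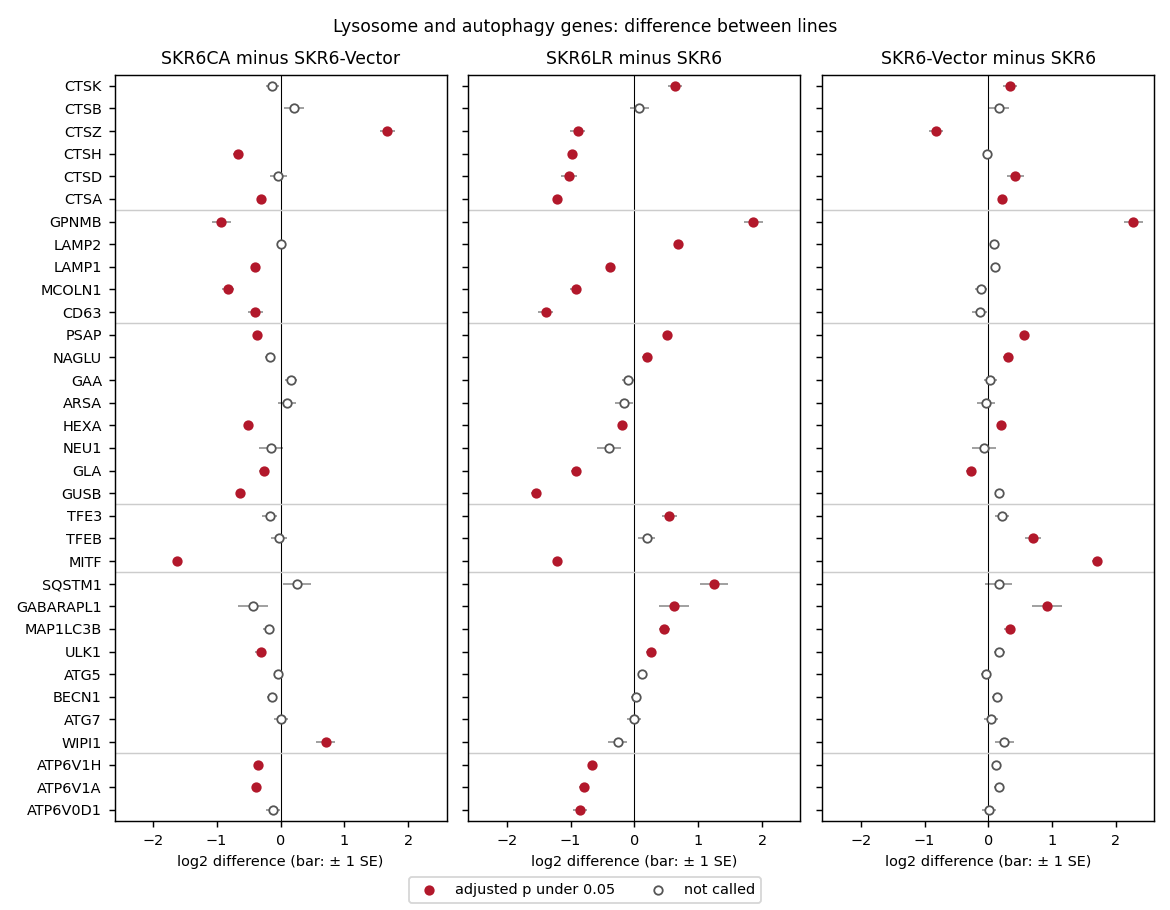
Log2 difference of each gene (x axis, with 1 SE) in SKR6CA minus SKR6-Vector, SKR6LR minus SKR6 and SKR6-Vector minus SKR6, with the genes grouped by role from top to bottom; filled points have an adjusted p under 0.05. In SKR6CA minus SKR6-Vector 14 filled points lie below 0 and 2 above, in SKR6LR minus SKR6 14 and 10, and in SKR6-Vector minus SKR6 2 and 11.

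Among the MiT-TFE factors, MITF was called in 3 of the 4 comparisons between lines, TFEB in 2 and TFE3 in 1. MITF, the family member known best from melanocytes and osteoclasts, was at 7.271, 7.342 and 7.320 on the SKR6CA arrays, at 5.993, 6.003 and 6.081 on the SKR6LR arrays, at 8.792, 8.986 and 9.005 on the SKR6-Vector arrays and at 7.259, 7.240 and 7.197 on the SKR6 arrays. SKR6-Vector lay above every other line and SKR6LR below every other line, without overlap. The difference was -1.62 in SKR6CA against SKR6-Vector (SE 0.065, adjusted p = 5.31e-09), -1.21 in SKR6LR against SKR6 (adjusted p = 5.58e-09) and 1.70 in SKR6-Vector against SKR6 (adjusted p = 3.11e-09). Against SKR6, SKR6CA gave 0.08 (adjusted p = 0.45), so the fall in SKR6CA depended on the control. A second MITF probe set gave -1.41, -0.81 and 1.58 for the first 3 comparisons.

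TFEB, a master regulator of lysosome formation, had values of 7.92, 7.99 and 7.99 in SKR6CA, 7.12, 7.74 and 7.61 in SKR6LR, 7.90, 8.05 and 8.03 in SKR6-Vector and 7.20, 7.40 and 7.30 in SKR6. Both transduced lines lay above SKR6 without overlap, and the SKR6LR arrays spanned the SKR6 range. TFEB was higher by 0.69 in SKR6-Vector (SE 0.13, adjusted p = 0.00137) and by 0.66 in SKR6CA (adjusted p = 0.00209), each against SKR6, while SKR6CA against SKR6-Vector gave -0.03 (adjusted p = 0.914) and SKR6LR against SKR6 gave 0.19 (adjusted p = 0.24). TFE3, a close relative of TFEB, was at 9.18, 9.18 and 9.38 in SKR6CA, 9.57, 10.07 and 9.60 in SKR6LR, 9.50, 9.37 and 9.38 in SKR6-Vector and 9.19, 9.25 and 9.16 in SKR6. All SKR6LR arrays lay above all SKR6 arrays, replicate 2 farthest. Its difference was 0.54 in SKR6LR against SKR6 (SE 0.12, adjusted p = 0.00141), -0.17 in SKR6CA against SKR6-Vector (adjusted p = 0.349) and 0.21 in SKR6-Vector against SKR6 (adjusted p = 0.221). Neither TFEB nor TFE3 was called lower in any of these comparisons.

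**Figure D2:**
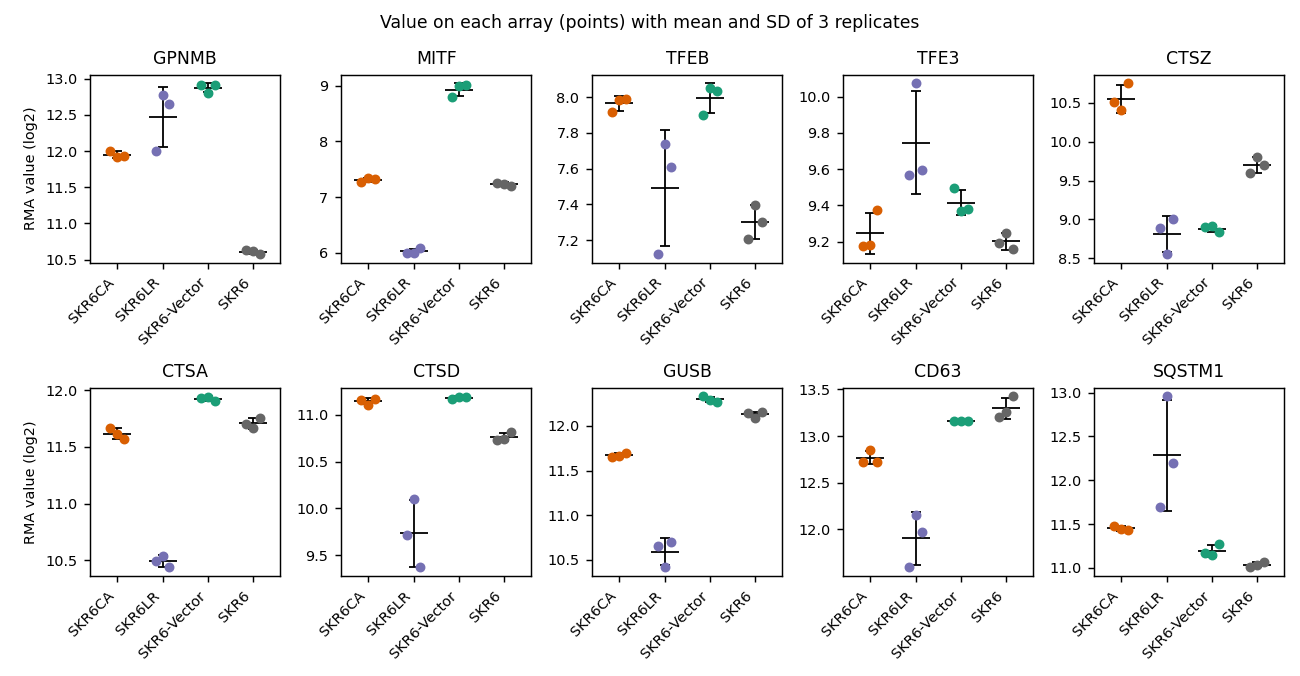
RMA log2 value (y axis) on each array of SKR6CA, SKR6LR, SKR6-Vector and SKR6 for the 10 genes whose array values are given in the text; points are arrays, and bars show the mean and SD of 3 replicates. MITF is highest in SKR6-Vector and lowest in SKR6LR, and GPNMB is lowest in SKR6, where its arrays run from 10.58 to 10.63.

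GPNMB, a transmembrane glycoprotein known as a MITF target in melanocytes, was at 12.001, 11.917 and 11.930 in SKR6CA, 11.997, 12.770 and 12.649 in SKR6LR, 12.914, 12.804 and 12.911 in SKR6-Vector and 10.634, 10.614 and 10.577 in SKR6. The SKR6 arrays lay below all others, and SKR6CA lay between SKR6 and SKR6-Vector. GPNMB was 4.82-fold higher in SKR6-Vector than in SKR6 (log2 difference 2.27, SE 0.15, adjusted p = 3.27e-07) and 3.64-fold higher in SKR6LR than in SKR6 (1.86, adjusted p = 2.64e-07). It fell by 0.93 in SKR6CA against SKR6-Vector (adjusted p = 0.000511), yet was higher by 1.34 in SKR6CA against SKR6 (adjusted p = 4.17e-05). In SKR6LR, GPNMB was high while MITF was low: MITF there lay below SKR6 on all 3 arrays. A second GPNMB probe set gave -1.04, 1.85 and 1.84 for SKR6CA against SKR6-Vector, SKR6LR against SKR6 and SKR6-Vector against SKR6.

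MCOLN1, LAMP1 and CD63 also fell in SKR6CA against SKR6-Vector, while LAMP2 depended on the probe set. MCOLN1, the TRPML1 calcium channel of the lysosome, averaged 7.32 ± 0.15 in SKR6CA, 7.34 ± 0.17 in SKR6LR, 8.14 ± 0.018 in SKR6-Vector and 8.26 ± 0.029 in SKR6 (SD, n = 3 each). It fell by 0.82 in SKR6CA against SKR6-Vector (SE 0.088, adjusted p = 2.2e-05) and by 0.92 in SKR6LR against SKR6 (adjusted p = 1.48e-06), and the test of the difference between these effects gave -0.10 (SE 0.12, adjusted p = 0.576). LAMP1, the heavily glycosylated coat of the lysosomal membrane, averaged 13.43 ± 0.052 in SKR6CA, 13.35 ± 0.058 in SKR6LR, 13.84 ± 0.03 in SKR6-Vector and 13.73 ± 0.013 in SKR6. It fell by 0.40 in SKR6CA against SKR6-Vector (adjusted p = 0.000123) and by 0.38 in SKR6LR against SKR6 (adjusted p = 5.24e-05). The tetraspanin CD63, a protein of late endosomes and exosomes, was at 12.73, 12.84 and 12.72 in SKR6CA, 11.59, 12.15 and 11.97 in SKR6LR, and 13.16 on each of the SKR6-Vector arrays, against 13.20, 13.26 and 13.42 in SKR6. SKR6LR held the lowest arrays and did not overlap any other line. CD63 fell by 1.39 in SKR6LR against SKR6 (2.62-fold, SE 0.12, adjusted p = 3.68e-07) and by 0.40 in SKR6CA against SKR6-Vector (adjusted p = 0.0224), where the call was lost without any of the 3 SKR6-Vector arrays or SKR6CA replicates 1 or 3 (adjusted p up to 0.0725).

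LAMP2, which is made as several isoforms with different last exons and takes part in chaperone-mediated autophagy and vesicle fusion, gave opposite answers on different probe sets. The probe set with the highest mean averaged 11.54 ± 0.044 in SKR6CA, 12.12 ± 0.028 in SKR6LR, 11.53 ± 0.034 in SKR6-Vector and 11.44 ± 0.038 in SKR6. By it LAMP2 was higher by 0.69 in SKR6LR against SKR6 (SE 0.052, adjusted p = 1.57e-07). The 3 other single-gene probe sets lay lower in SKR6LR, by -0.51, -0.41 and -0.92, and the mean of all 4 gave -0.29 (adjusted p = 0.000691). They also lay higher in SKR6-Vector than in SKR6, by 0.42, 0.44 and 0.33, where the first gave 0.09 (adjusted p = 0.229). In SKR6CA against SKR6-Vector the first gave 0.01 and the 3 others -0.41, -0.49 and 0.14, and the mean of all 4 was called lower, at -0.19 (adjusted p = 0.0253). Which isoform each probe set reads was not analysed here, so LAMP2 has no settled direction in SKR6LR or in SKR6CA.

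**Figure D3:**
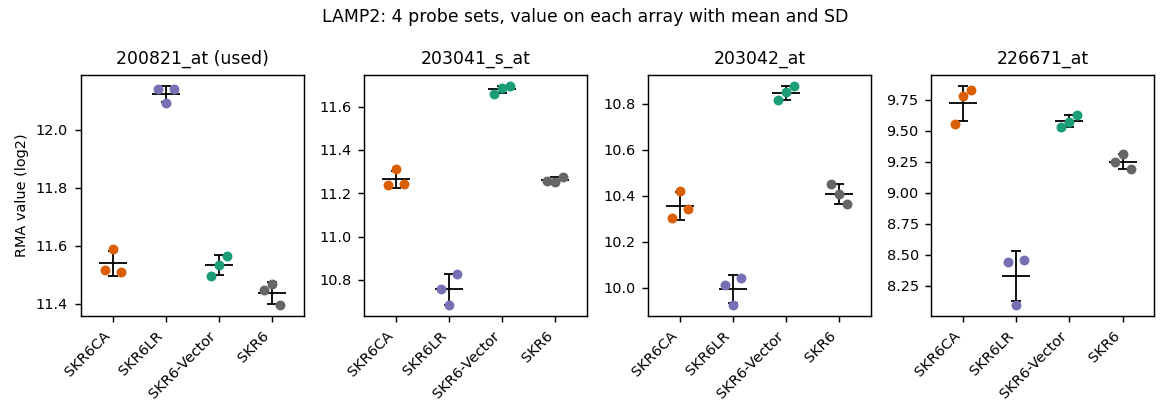
RMA log2 value (y axis, a scale of its own in each panel) of the 4 LAMP2 probe sets on each array of SKR6CA, SKR6LR, SKR6-Vector and SKR6; points are arrays, and bars show the mean and SD of 3 replicates. The first probe set has SKR6LR above the other lines, and the 3 others have SKR6LR below them.

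Of the 6 proteases among the 33 genes, 4 were lower in SKR6LR than in SKR6, CTSK was higher and CTSB was not called. Of all genes 31.0% were lower there, and of those above the median level 47.0%. Other lysosomal proteases, given further below, were called in both directions. CTSZ had the largest rise of the 33 genes in SKR6CA against SKR6-Vector. CTSZ, a carboxypeptidase (cathepsin Z), was at 10.507, 10.404 and 10.755 in SKR6CA, 8.883, 8.552 and 8.999 in SKR6LR, 8.899, 8.909 and 8.835 in SKR6-Vector and 9.602, 9.808 and 9.700 in SKR6. SKR6CA lay above every other line and SKR6 above SKR6LR and SKR6-Vector, whose arrays overlapped. CTSZ was 3.19-fold higher in SKR6CA than in SKR6-Vector (1.67, SE 0.12, adjusted p = 4.94e-07) and higher by 0.85 in SKR6CA than in SKR6 (adjusted p = 0.000178), and it fell by 0.89 in SKR6LR (adjusted p = 2.15e-05) and by 0.82 in SKR6-Vector (adjusted p = 0.000186), each against SKR6. A second, dimmer CTSZ probe set with a mean of 6.59 gave -0.06, -0.28 and -0.04 for SKR6CA against SKR6-Vector, SKR6LR against SKR6 and SKR6-Vector against SKR6, so the changes rest on the brighter one.

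CTSA, a carboxypeptidase that also protects NEU1 and beta-galactosidase, was at 11.67, 11.61 and 11.57 in SKR6CA, 10.49, 10.54 and 10.44 in SKR6LR, 11.93, 11.94 and 11.90 in SKR6-Vector and 11.70, 11.67 and 11.76 in SKR6. The SKR6LR arrays lay more than 1 unit below all others. CTSA fell by 1.22 in SKR6LR against SKR6 (2.33-fold, SE 0.055, adjusted p = 9.65e-10) and by 0.31 in SKR6CA against SKR6-Vector (adjusted p = 0.000995), and was higher by 0.22 in SKR6-Vector against SKR6 (adjusted p = 0.0109). The aspartic protease CTSD was at 11.16, 11.11 and 11.17 in SKR6CA, 9.72, 10.10 and 9.38 in SKR6LR, 11.17, 11.19 and 11.19 in SKR6-Vector and 10.73, 10.74 and 10.81 in SKR6. SKR6LR was lowest again, with replicates 0.72 apart. CTSD fell by 1.03 in SKR6LR against SKR6 (SE 0.13, adjusted p = 1.97e-05), and SKR6CA against SKR6-Vector gave -0.04 (adjusted p = 0.893). It was higher by 0.42 in SKR6-Vector against SKR6 (adjusted p = 0.0317), a call that was lost without any of the 6 arrays compared (adjusted p up to 0.0892).

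CTSH, an aminopeptidase, averaged 9.42 ± 0.061 in SKR6CA, 9.14 ± 0.11 in SKR6LR, 10.09 ± 0.0047 in SKR6-Vector and 10.11 ± 0.043 in SKR6 (SD, n = 3 each), and it fell by 0.67 in SKR6CA against SKR6-Vector (adjusted p = 9.06e-06) and by 0.98 in SKR6LR against SKR6 (adjusted p = 4.36e-08). CTSK, a collagen-degrading cathepsin known from osteoclasts, was dim, with means of 4.75 in SKR6CA, 5.17 in SKR6LR, 4.88 in SKR6-Vector and 4.54 in SKR6, all below the median level of genes. It was higher by 0.64 in SKR6LR against SKR6 (adjusted p = 0.000213) and by 0.34 in SKR6-Vector against SKR6 (adjusted p = 0.035), the smaller change being lost without single arrays (SKR6 replicate 1 or 3, SKR6-Vector replicate 1 or 3). CTSB, a broad cysteine protease, was not called in any comparison, and its SKR6LR replicates ranged over 0.88, against 0.03 in SKR6CA, 0.03 in SKR6-Vector and 0.02 in SKR6. In SKR6CA against SKR6-Vector it gave 0.21 (SE 0.15, adjusted p = 0.388), and the pooled SE takes in that SKR6LR spread.

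Of the 8 glycosidases, sulfatases and activators, 4 fell in SKR6CA against SKR6-Vector and none was called higher. Of all genes 14.9% were lower and 11.7% higher there, and of those above the median level 23.3% and 19.6%. GUSB, the beta-glucuronidase that breaks down glycosaminoglycans and is often used as a reference gene, was at 11.65, 11.66 and 11.70 in SKR6CA, 10.66, 10.41 and 10.70 in SKR6LR, 12.33, 12.29 and 12.27 in SKR6-Vector and 12.14, 12.09 and 12.15 in SKR6. The arrays of the 4 lines did not overlap, with SKR6LR lowest and SKR6-Vector highest. GUSB fell by 1.54 in SKR6LR against SKR6 (2.91-fold, SE 0.071, adjusted p = 1.22e-09) and by 0.63 in SKR6CA against SKR6-Vector (1.54-fold, adjusted p = 3.28e-05). The fall in SKR6LR was larger, with a difference between the effects of -0.91 (SE 0.1, adjusted p = 7.48e-06).

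GLA, the alpha-galactosidase that is deficient in Fabry disease, averaged 10.06 ± 0.098 in SKR6CA, 9.67 ± 0.14 in SKR6LR, 10.32 ± 0.028 in SKR6-Vector and 10.59 ± 0.045 in SKR6. It fell by 0.92 in SKR6LR (adjusted p = 3.52e-07) and by 0.27 in SKR6-Vector (adjusted p = 0.0188), each against SKR6, and by 0.26 in SKR6CA against SKR6-Vector (adjusted p = 0.0239). Those smaller changes were each lost without single arrays (adjusted p up to 0.0665 for SKR6-Vector without SKR6 replicate 1 or 3 or SKR6-Vector replicate 1, and up to 0.104 for SKR6CA without SKR6-Vector replicate 2 or 3 or SKR6CA replicate 2 or 3). HEXA, the alpha subunit of beta-hexosaminidase, averaged 10.40 ± 0.051 in SKR6CA, 10.51 ± 0.021 in SKR6LR, 10.91 ± 0.033 in SKR6-Vector and 10.71 ± 0.07 in SKR6. It fell by 0.51 in SKR6CA against SKR6-Vector (adjusted p = 2.61e-05) and by 0.20 in SKR6LR against SKR6 (adjusted p = 0.00856), and the change in SKR6LR was lost under cyclic loess, line weights and other choices of probe set.

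PSAP, the precursor of the saposins that help enzymes reach their lipid substrates, averaged 13.62 ± 0.03 in SKR6CA, 13.94 ± 0.075 in SKR6LR, 13.99 ± 0.0098 in SKR6-Vector and 13.43 ± 0.022 in SKR6. It was higher by 0.51 in SKR6LR (SE 0.054, adjusted p = 3.71e-06) and by 0.55 in SKR6-Vector (adjusted p = 1.03e-05), each against SKR6, and fell by 0.37 in SKR6CA against SKR6-Vector (adjusted p = 0.000242). NAGLU, which degrades heparan sulfate, averaged 6.95 ± 0.11 in SKR6CA, 7.01 ± 0.055 in SKR6LR, 7.12 ± 0.071 in SKR6-Vector and 6.82 ± 0.093 in SKR6; it was higher by 0.30 in SKR6-Vector against SKR6 (adjusted p = 0.00838) and by 0.19 in SKR6LR against SKR6 (adjusted p = 0.0425), and this second call was lost in 14 of 22 alternatives. The acid alpha-glucosidase GAA, the sialidase NEU1 and the arylsulfatase ARSA were not called in any comparison. NEU1 gave -0.40 in SKR6LR against SKR6 (SE 0.19, adjusted p = 0.0952), with means of 9.11 ± 0.52 in SKR6LR and 9.51 ± 0.067 in SKR6.

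The 3 V-ATPase subunits were lower in SKR6LR without overlap with SKR6. ATP6V1A, the catalytic subunit, averaged 11.70 ± 0.07 in SKR6CA, 11.13 ± 0.14 in SKR6LR, 12.08 ± 0.039 in SKR6-Vector and 11.92 ± 0.011 in SKR6 (SD, n = 3 each). It fell by 0.79 in SKR6LR against SKR6 (SE 0.072, adjusted p = 8.78e-07) and by 0.38 in SKR6CA against SKR6-Vector (adjusted p = 0.00153). ATP6V0D1, the subunit that couples the membrane part to the rotor, fell by 0.85 in SKR6LR against SKR6 (SE 0.11, adjusted p = 2.05e-05), with means of 9.63 ± 0.28 in SKR6LR and 10.48 ± 0.038 in SKR6, and gave -0.12 in SKR6CA against SKR6-Vector (adjusted p = 0.498). The regulatory subunit ATP6V1H fell by 0.66 in SKR6LR against SKR6 (adjusted p = 3.28e-06) and by 0.35 in SKR6CA against SKR6-Vector (adjusted p = 0.00229), on a probe set with a mean of 10.96. Its 2 other probe sets were dim, with means of 5.63 and 4.56, below the median level of genes, so these calls rest on the bright one. No V-ATPase subunit of the 3 was called in SKR6-Vector against SKR6, where 25.7% of all genes were called.

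Of the 8 autophagy genes, SQSTM1, MAP1LC3B, GABARAPL1 and ULK1 were called higher in SKR6LR against SKR6, and the other 4 were not called. Of all genes 21.4% were higher there, and of those above the median level 28.8%. SQSTM1, the cargo receptor p62 that is itself degraded by autophagy, was at 11.48, 11.45 and 11.43 in SKR6CA, 11.69, 12.96 and 12.19 in SKR6LR, 11.17, 11.15 and 11.27 in SKR6-Vector and 11.01, 11.03 and 11.07 in SKR6. On the probe set used, the SKR6LR arrays lay above all others but were 1.26 apart, while all arrays of the other lines lay between 11.01 and 11.48. SQSTM1 was 2.37-fold higher in SKR6LR than in SKR6 (1.25, SE 0.22, adjusted p = 0.000319), and by 0.91 without replicate 2. Its 2 other probe sets with a mean of at least 7 gave 0.642 and 0.275, so the size depended on the probe set. On the second of these, SKR6LR replicate 1 was at 7.93, below the SKR6 arrays at 8.17 to 8.26. SKR6CA against SKR6-Vector gave 0.26 (SE 0.22, adjusted p = 0.47), with SDs of 0.028 and 0.065 in these lines. The pooled SE takes in the SKR6LR SD of 0.635.

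MAP1LC3B, the LC3 protein that is attached to autophagosome membranes, averaged 10.38 ± 0.023 in SKR6CA, 10.69 ± 0.2 in SKR6LR, 10.56 ± 0.023 in SKR6-Vector and 10.22 ± 0.033 in SKR6 (SD, n = 3 each). It was higher by 0.47 in SKR6LR (adjusted p = 0.000394) and by 0.33 in SKR6-Vector (adjusted p = 0.0106), each against SKR6. GABARAPL1, a relative of LC3, averaged 8.31 ± 0.13 in SKR6CA, 8.44 ± 0.67 in SKR6LR, 8.74 ± 0.13 in SKR6-Vector and 7.83 ± 0.073 in SKR6; it has a near-identical copy, GABARAPL3, so its values are uncertain. It was higher by 0.92 in SKR6-Vector against SKR6 (adjusted p = 0.0123, and 0.0502 without SKR6-Vector replicate 3). In SKR6LR against SKR6 it gave 0.62 (SE 0.24, adjusted p = 0.0446), a call lost in 15 of 21 alternatives, with 0.25 remaining without SKR6LR replicate 2.

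ULK1, the kinase that starts autophagy, averaged 7.05 ± 0.069 in SKR6CA, 7.44 ± 0.16 in SKR6LR, 7.36 ± 0.09 in SKR6-Vector and 7.18 ± 0.059 in SKR6. It fell by 0.31 in SKR6CA against SKR6-Vector (adjusted p = 0.0124) and was higher by 0.26 in SKR6LR against SKR6 (adjusted p = 0.0176). Without SKR6-Vector replicate 1 or SKR6CA replicate 2 the fall was not called (adjusted p up to 0.0584), and without SKR6LR replicate 2 or SKR6 replicate 1 the rise was not called (adjusted p up to 0.0694). WIPI1, which binds the lipid of forming autophagosomes, averaged 11.54 ± 0.087 in SKR6CA, 10.33 ± 0.42 in SKR6LR, 10.84 ± 0.03 in SKR6-Vector and 10.59 ± 0.0038 in SKR6. It and CTSZ were the 2 genes higher in SKR6CA than in SKR6-Vector, WIPI1 by 0.71 (SE 0.15, adjusted p = 0.00365), and it was higher by 0.96 in SKR6CA than in SKR6 (adjusted p = 0.000584). ATG5 and ATG7, which conjugate LC3 to lipid, and BECN1, of the lipid kinase complex, were not called in any comparison, with differences from -0.14 to 0.14 between lines; by the mean of its 3 probe sets, however, ATG5 gave -0.30 in SKR6LR against SKR6 (adjusted p = 0.000177).

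The genes varied most among the SKR6LR cultures. Its replicates ranged over more than 0.5 in 13 of the 33 genes, against none in SKR6CA, SKR6-Vector and SKR6. The median range was 0.296 in SKR6LR, against 0.113 in SKR6CA, 0.0624 in SKR6-Vector and 0.0732 in SKR6. Over all genes it was also widest in SKR6LR, at 0.232, against 0.147 in SKR6CA, 0.122 in SKR6-Vector and 0.118 in SKR6. Replicate 2 was the highest SKR6LR array in 22 of the 33 genes (66.7%), beside 34.3% of all genes, and in all 8 autophagy genes. Replicate 1 was the lowest in 19 (57.6%), beside 37.5% of all genes. Replicate 3, the array with the large actin difference, was the lowest in 8. CTSD, NEU1, CTSB, WIPI1 and GABARAPL1 belong to the genes with wide SKR6LR ranges, while CTSA, MITF and LAMP2 ranged over 0.10, 0.09 and 0.05 there.

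**Figure D4:**
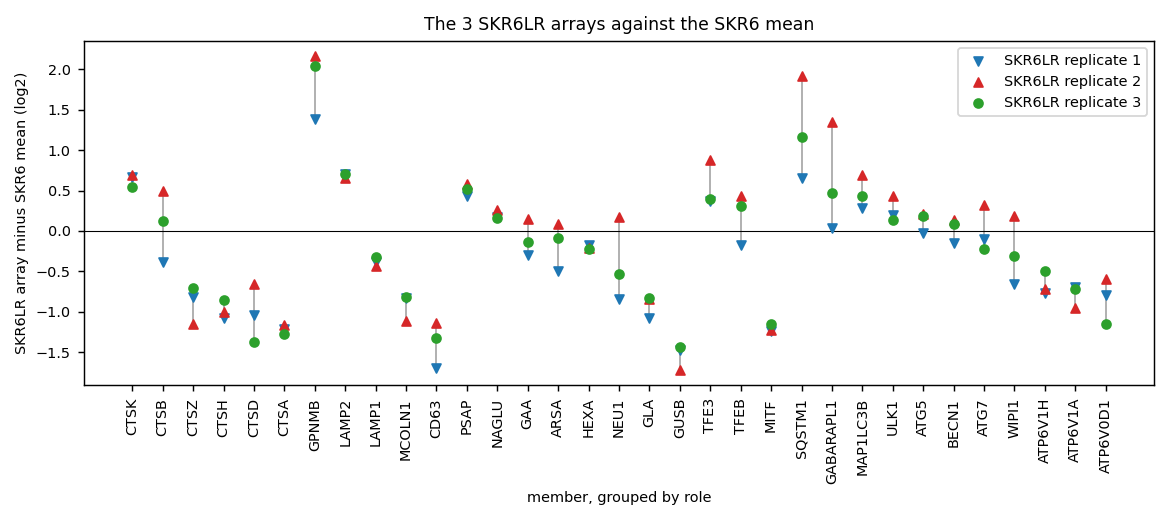
Value of each SKR6LR array minus the SKR6 mean (y axis, log2) for the 33 genes grouped by role (x axis); symbols mark SKR6LR replicates 1, 2 and 3, and grey lines join them. Replicate 2 is the highest array in 22 genes, and for SQSTM1 the arrays are 1.26 apart while for CTSA they lie within 0.10.

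Set beside each other, SKR6CA against SKR6-Vector and SKR6LR against SKR6 share no arrays. In both, 11 genes fell: CTSA, CTSH, LAMP1, GLA, HEXA, GUSB, CD63, MCOLN1, MITF, ATP6V1A and ATP6V1H. That is 33.3% of the 33 genes, beside 7.09% of all genes and 11.4% of genes above the median level that were lower in both. For GLA and CD63 the call in SKR6CA, for HEXA that in SKR6LR and for ATP6V1H both calls were lost under some alternatives. With SKR6 as the control, SKR6CA gave -0.09 for CTSA (adjusted p = 0.264) and 0.08 for MITF (adjusted p = 0.45). Neither was called, while the other genes of the 11 were called lower. Of those calls, ATP6V1A lost its call in 11 of 22 alternatives, ATP6V1H in 9 and HEXA in 2. No gene rose in both. CTSZ rose in SKR6CA and fell in SKR6LR, and PSAP, GPNMB and ULK1 fell in SKR6CA and rose in SKR6LR. With SKR6 as the control, PSAP and GPNMB were instead higher in SKR6CA, by 0.18 and 1.34. The difference between the effects was itself tested and called for 23 of the 33 genes, 69.7% beside 45.4% of all genes and 68.3% of genes above the median level. Of these, 12 had the higher effect in SKR6LR and 11 the lower, beside 19.8% and 25.6% of all genes and 27.1% and 41.2% of genes above the median level.

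The values were then set against the promoter matches. Of the 8 with CACGTG in the promoter, namely CTSA, CTSD, GAA, NEU1, LAMP1, CD63, MCOLN1 and ATP6V0D1, none was higher in SKR6LR than in SKR6, 6 were lower and 2 were not called, with a median of -0.89, where 31.0% of all genes and 47.0% of those above the median level were lower. Of the 16 without it, 6 were higher, 5 lower and 5 not called, with a median of 0.07, and the 9 without an entry in the table gave 4, 3 and 2. The 16 hold all 8 autophagy genes and all 3 MiT-TFE factors, and no gene with CACGTG belongs to these groups. Promoter class and role therefore cannot be told apart. CTSH, GLA, CTSZ and GUSB, lysosomal genes without it, gave -0.98, -0.92, -0.89 and -1.54, all called lower. GPNMB, also without it, gave 1.86. In SKR6CA against SKR6-Vector the 8 genes with CACGTG gave 0 higher, 4 lower and 4 not called, and the 16 without it gave 2, 6 and 8. Of all genes 11.7% were higher and 14.9% lower there, and of those above the median level 19.6% and 23.3%. In SKR6-Vector against SKR6 the 8 with CACGTG gave 2 higher, 0 lower and 6 not called, and the 16 without it gave 5, 2 and 9. Here 12.2% of all genes were higher and 13.4% lower, and 19.2% and 23.0% of those above the median level. GAA, whose stretch printed above holds the palindrome in 2 copies, gave -0.09 in SKR6LR against SKR6 (SE 0.094, adjusted p = 0.44). The difference between the promoter classes was not tested.

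Other lysosomal hydrolases, a list of 37 genes of which 30 were measured, gave 3 higher and 13 lower in SKR6CA against SKR6-Vector, 12 and 14 in SKR6LR against SKR6, and 10 and 3 in SKR6-Vector against SKR6. In that order 53.3%, 86.7% and 43.3% were called. Among all genes the shares were 26.6%, 52.3% and 25.7%, and among those above the median level 42.9%, 75.8% and 42.2%. GALC, which degrades myelin galactolipids, averaged 6.43 ± 0.13 in SKR6CA, 7.24 ± 0.22 in SKR6LR, 8.14 ± 0.046 in SKR6-Vector and 5.91 ± 0.18 in SKR6. It fell by 1.71 in SKR6CA against SKR6-Vector (adjusted p = 4.51e-07) and was higher by 2.23 in SKR6-Vector against SKR6 (adjusted p = 3.9e-08). The protease CTSC went the other way, higher by 0.80 in SKR6CA against SKR6-Vector (adjusted p = 4.08e-05) while it fell by 0.76 in SKR6-Vector against SKR6 (adjusted p = 6.74e-05). In SKR6LR against SKR6 the thioesterase PPT1 fell by 2.34 and the hydrolase GGH fell by 1.91, while the endopeptidase LGMN was higher by 2.04 and the cathepsin CTSS by 1.94, CTSS with an SD of 1.1 among SKR6LR arrays. Among the other proteases of this list, CTSO was higher there by 1.45, CTSL by 1.29, SCPEP1 by 1.02 and DPP7 by 0.27. CTSC fell there by 0.69 and TPP1 by 0.52, and CTSF and CTSV were not called. MAN2B1, an alpha-mannosidase, fell by 0.82 and the cholesterol carrier NPC2 by 0.57 in SKR6CA against SKR6-Vector, where the acid phosphatase ACP2 was higher by 0.40. FUCA1, a fucosidase, was higher by 1.03 in SKR6-Vector against SKR6, and the cathepsin CTSV gave -0.61.

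Other lysosomal membrane and sorting genes, 24 of 26 measured, gave 3 higher and 8 lower in SKR6CA against SKR6-Vector, 10 and 6 in SKR6LR against SKR6, and 7 and 2 in SKR6-Vector against SKR6. In that order 45.8%, 66.7% and 37.5% were called, beside 42.9%, 75.8% and 42.2% of genes above the median level. LAMP3, a relative of LAMP1 that few cell types express, averaged 4.16 ± 0.099 in SKR6CA, 10.41 ± 0.85 in SKR6LR, 3.94 ± 0.097 in SKR6-Vector and 4.19 ± 0.068 in SKR6, a difference of 6.22 in SKR6LR against SKR6 (adjusted p = 1.6e-09). SLC17A5, the sialic acid exporter, was higher by 2.05 there, and M6PR, which sorts hydrolases by their mannose 6-phosphate, fell by 0.62. TMEM106B fell by 0.81 and HGSNAT, which acetylates heparan sulfate, by 0.50 in SKR6CA against SKR6-Vector, and both were higher in SKR6-Vector than in SKR6, by 1.13 and 0.77, and in SKR6LR than in SKR6, by 0.84 and 0.97. M6PR fell by 0.53 in SKR6CA against SKR6-Vector, where the endolysosomal channel TPCN1 was higher by 0.45 and the transporter ABCA2 by 0.31. CD164, a sialomucin, fell by 0.71 in SKR6LR against SKR6.

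Other V-ATPase subunits, 17 of 19 measured, gave 4 higher and 4 lower in SKR6CA against SKR6-Vector, 3 and 9 in SKR6LR against SKR6, and 4 and 3 in SKR6-Vector against SKR6. In that order 47.1%, 70.6% and 41.2% were called, beside 42.9%, 75.8% and 42.2% of genes above the median level. In SKR6CA against SKR6-Vector the tissue-restricted C subunit ATP6V1C2 was higher by 1.41 (adjusted p = 1.41e-07), the a3 subunit TCIRG1 by 1.28 (adjusted p = 6.11e-08), ATP6V0C, which forms the proton-carrying ring, by 0.55 and ATP6V0B, of the same ring, by 0.40. ATP6V1C1 fell by 0.66, ATP6V1D by 0.60, ATP6V0E1 by 0.26 and ATP6AP2 by 0.17. In SKR6LR against SKR6, ATP6V0E2 fell by 2.66, ATP6V0B by 1.38 and ATP6V1B1 by 0.83, and the a2 subunit ATP6V0A2 was higher by 1.55 and ATP6V1C2 by 0.77. The largest called differences in SKR6-Vector against SKR6 were -0.57 for TCIRG1, 0.54 for ATP6V1C2, -0.53 for ATP6V0B and 0.43 for ATP6V0A2.

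Other autophagy genes, 45 of 45 measured, gave 7 higher and 14 lower in SKR6CA against SKR6-Vector, 9 and 18 in SKR6LR against SKR6, and 11 and 8 in SKR6-Vector against SKR6. The receptor OPTN, which brings ubiquitin-marked cargo to LC3, averaged 9.67 ± 0.036 in SKR6CA, 11.28 ± 0.7 in SKR6LR, 9.39 ± 0.05 in SKR6-Vector and 8.93 ± 0.047 in SKR6, and it was higher by 2.35 in SKR6LR against SKR6 (adjusted p = 2.7e-06). TMEM41B, a lipid scramblase, was higher by 1.53 there, while the LC3-processing protease ATG4A fell by 1.60 and the LC3 gene MAP1LC3A by 1.35. The related genes GABARAPL2 and GABARAP fell by 0.34 and 0.29, so members of this family were called in both directions. MAP1LC3A was higher by 0.79 in SKR6CA against SKR6-Vector, where EPG5 fell by 0.79, the mitophagy kinase PINK1 by 0.64 and PLEKHM1 by 0.56, and the mitophagy receptor BNIP3 was higher by 0.44. VMP1 was higher by 0.62 in SKR6-Vector against SKR6, and BNIP3, ATG4D and MAP1LC3A gave -0.62, -0.52 and -0.48.

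**Figure D5:**
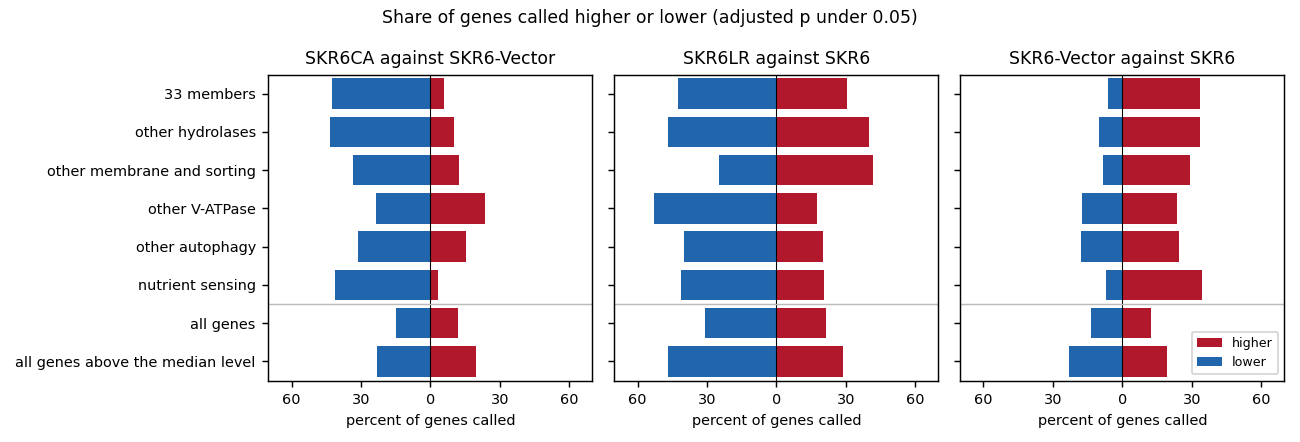
Percent of genes called higher (right of 0) or lower (left of 0) at an adjusted p under 0.05 in SKR6CA against SKR6-Vector, SKR6LR against SKR6 and SKR6-Vector against SKR6, for the 33 genes described here, 5 other lists and all genes. In SKR6CA against SKR6-Vector more of the 33 genes and of the other hydrolases lie on the lower side (14 of 33 and 13 of 30) than on the higher side (2 and 3), and in SKR6-Vector against SKR6 more lie on the higher side (11 of 33 and 10 of 30) than on the lower side (2 and 3). Of all genes 14.9% were lower and 11.7% higher in the first of these comparisons, and 13.4% and 12.2% in the second.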

How the data were processed

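Total RNA of 12 cultures was hybridised to 3′ expression arrays, 1 array per culture. The deposited log2 values come from robust multi-array averaging (RMA), which the submitters' processing notes name together with limma; the sources used here give neither versions nor what limma was used for. RMA normalises all arrays to 1 distribution and compresses small differences near the background. Of 54675 probe sets, 41097 had 1 gene in the platform annotation, and each of 19775 genes was read from 1 probe set, the brightest of its single-gene probe sets by mean over the 12 arrays. Differences were tested on the log2 scale with limma 3.58.1 in R 4.3.3 (lmFit, eBayes; 1 mean per line, all 12 arrays), with Benjamini-Hochberg adjustment over the 19775 genes and a call at an adjusted p under 0.05. The number of arrays limits the precision. The labels call replicates biological; whether lines were derived more than once is not given, so p-values measure the spread between cultures, pooled over the 4 lines. The model was tested on simulated data in which all lines shared 1 spread per gene, so the wider SKR6LR spread was not tested. Far fewer genes were changed in each simulation than were called in the real comparisons. In the simulations, false calls made up 6.22% of calls in SKR6CA against SKR6-Vector, 5.97% in SKR6LR against SKR6 and 4.84% in SKR6-Vector against SKR6. These shares hold for the simulated data only.

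The genes and lists were chosen with earlier results of these data known. Every array is given for genes called with a difference of at least 1 in SKR6CA against SKR6-Vector, SKR6LR against SKR6 or SKR6-Vector against SKR6, and for the MiT-TFE factors. From each other list, up to 4 called genes with the largest differences per comparison and up to 2 of the opposite direction were eligible to be named. The remaining proteases of the hydrolase list were added for SKR6LR against SKR6. Motifs were searched on both strands of RefSeq promoters. The alternatives tried were a replicate block, 12 fits that each omitted 1 array, median centring, cyclic loess, robust fitting with a trend, array and line weights, fits of the compared arrays alone, a filter at the median level, other choices of probe set and an adjusted p under 0.01. Counts of kept or lost calls leave out the last of these.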

Additional observations from a re-analysis of the deposited data

Results flagged for a closer look

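For 4 of the 33 genes the effect in SKR6LR against SKR6 and that in SKR6CA against SKR6-Vector were each called with opposite signs, and the test of the difference between them (limma, SKR6LR effect minus SKR6CA effect) was also called. CTSZ, a carboxypeptidase, fell in SKR6LR and rose in SKR6CA, with a difference of -2.57 (SE 0.16, adjusted p = 4.63e-08). GPNMB, known as a MITF target in melanocytes, rose in SKR6LR and fell in SKR6CA, with a difference of 2.79 (SE 0.21, adjusted p = 2.49e-07). The saposin precursor PSAP gave a difference of 0.88 (SE 0.076, adjusted p = 9.02e-07). Against SKR6, SKR6CA was higher by 1.34 for GPNMB (adjusted p = 4.17e-05) and by 0.18 for PSAP (adjusted p = 0.0252). The fall of these genes in SKR6CA therefore depended on the control. That PSAP call was lost when any 1 of the 6 compared arrays was left out (adjusted p up to 0.0859). The autophagy kinase ULK1 gave 0.57 (SE 0.12, adjusted p = 0.00123). Both ULK1 effects lost their call without some single arrays (adjusted p up to 0.0584 in SKR6CA against SKR6-Vector and 0.0694 in SKR6LR against SKR6). In all 4 genes the arrays of SKR6LR and SKR6, and those of SKR6CA and SKR6-Vector, did not overlap. Arrays did not overlap either for 57.9% and 45.5% of all genes in these comparisons. The 4 genes were picked by their calls, and the share of all genes with opposite calls was not counted. A second, dimmer CTSZ probe set gave -0.28 in SKR6LR against SKR6 and -0.06 in SKR6CA against SKR6-Vector, so the opposition in CTSZ rests on the brighter one.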

How the results depend on the processing

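The stricter cutoff, an adjusted p under 0.01, is left out of the next counts. Under every other alternative, 12 of 16 called genes kept their call in SKR6CA against SKR6-Vector and 18 of 24 in SKR6LR against SKR6. So did 6 of 13 in SKR6-Vector against SKR6 and 10 of 14 in SKR6CA against SKR6. MAP1LC3B is among those 6, but its adjusted p in SKR6-Vector against SKR6 (limma) was 0.0106, above the stricter cutoff. The replicate numbers did not pair the cultures (correlations of same-numbered deviations from -0.034 to 0.095); with the number as a block, genes higher and lower were 2 and 14, 8 and 14, 11 and 2, and 5 and 8 in the 4 comparisons. Genes higher in SKR6CA against SKR6-Vector, 2 in the test reported, were 4 with array weights and 4 with only the compared arrays. Of all genes, 3164 were higher with array weights and 2982 with only the compared arrays, against 2305. Without _x_at and _s_at probe sets, which left 17100 genes, 1 of the 33 was higher. Genes higher in SKR6LR against SKR6 were 5 without those probe sets, against 10. For SKR6-Vector against SKR6 the 11 genes higher became 17 with array weights, 18 with line weights, 18 with only the compared arrays, 6 without those probe sets and 5 at an adjusted p under 0.01; the 2 lower became 1 in each of the last 2 settings and 1 to 2 without single arrays (1 without SKR6 replicate 1 or 3 or SKR6-Vector replicate 1). Its all-gene count was 7641 with array weights and 7579 with line weights, against 5073, and its median of 0.16 was 0.20 with cyclic loess, 0.093 with the mean of probe sets and 0.098 without those probe sets. The all-gene count was 3386 at an adjusted p under 0.01. For SKR6CA against SKR6 the 5 genes higher became 11 with array weights, line weights or only the compared arrays. Of all genes, 2844, 2759 and 2644 were higher in these settings, against 1972. The 5 became 3 without those probe sets and 4 to 11 without single arrays (11 without SKR6LR replicate 2). The all-gene count at an adjusted p under 0.01 was 3069, against 4810. Array weights gave SKR6LR replicate 3 a weight of 3.23 and replicates 1 and 2 weights of 0.19 and 0.18.

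Directions turned with the choice of probe set. With the mean of probe sets, SKR6CA against SKR6-Vector gave 0.15 for ATG5, 0.028 for ATP6V1H and -0.19 for LAMP2; SKR6LR against SKR6 gave -0.30 for ATG5 and -0.29 for LAMP2; SKR6CA against SKR6 gave 0.083 for ATP6V1H; and the difference of effects gave -0.45 for ATG5 and -0.10 for LAMP2. Without _x_at and _s_at probe sets, ATP6V1H, then read from a dim probe set with a mean of 4.56, gave 0.33 in SKR6CA against SKR6-Vector, 0.084 in SKR6LR against SKR6 and 0.20 in SKR6CA against SKR6, NAGLU -0.013 in SKR6LR against SKR6, and ATG7 -0.34 and HEXA 0.024 in SKR6CA against SKR6. The cause was not tested. Among called genes with other probe sets of a mean of at least 7, all agreed in sign in 7 of 7 genes (SKR6CA against SKR6-Vector), 10 of 11 (SKR6LR against SKR6), 7 of 7 (SKR6-Vector against SKR6) and 6 of 7 (SKR6CA against SKR6). Centring moved the split of all calls: higher and lower numbered 3063 and 2389 with median centring in SKR6CA against SKR6-Vector, against 2305 and 2946; 5341 and 4871 with cyclic loess in SKR6LR against SKR6, against 4223 and 6122; and 2739 and 2237 with cyclic loess in SKR6-Vector against SKR6, against 2418 and 2655. Median centring left the counts of the 33 genes at 2 and 14, 10 and 14, and 11 and 2, and cyclic loess gave 2 and 14, 13 and 13, and 14 and 2. Low values such as those of CTSK carry no detection call.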

Other observations

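Nutrient-sensing genes upstream of the MiT-TFE factors, 29 of 30 listed genes measured, gave 1 higher, 12 lower and 16 not called in SKR6CA against SKR6-Vector, a rate of 44.8% beside 42.9% of all genes above the median level. They gave 6 higher and 12 lower in SKR6LR against SKR6, 10 and 2 in SKR6-Vector against SKR6, and 2 and 8 in SKR6CA against SKR6. In that order 62.1%, 41.4% and 34.5% were called, beside 75.8%, 42.2% and 40.1% of genes above the median level. DEPTOR, an inhibitory partner of mTOR, averaged 7.89 ± 0.22 in SKR6CA, 7.89 ± 0.13 in SKR6LR, 10.43 ± 0.058 in SKR6-Vector and 9.33 ± 0.055 in SKR6 (SD, n = 3 each). It fell by 2.54 in SKR6CA against SKR6-Vector (limma, adjusted p = 5.32e-09) and by 1.44 in SKR6LR against SKR6 (adjusted p = 8.06e-08), and was higher by 1.09 in SKR6-Vector against SKR6 (adjusted p = 7.24e-06). The stress gene SESN3 fell by 1.19, FNIP2 by 1.14 and the Rag GTPase RRAGD, a known target of MiT-TFE factors, by 0.92 in SKR6CA against SKR6-Vector, where TSC2 was higher by 0.35. In SKR6LR against SKR6 the transcription factor FOXO1 was higher by 2.21, while NPRL2 fell by 1.18 and LAMTOR4 by 1.00. The MiT-TFE relative TFEC was higher by 0.97 there, at a low mean of 5.01 in SKR6LR and 4.04 in SKR6. SESN3 was higher by 1.51, FOXO1 by 1.06 and FOXO3 by 0.73 in SKR6-Vector against SKR6.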
